A study of Mus musculus with 12 samples.

Results

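Genes whose products help to make or cleave the mRNAs of replication-dependent histones were followed through 12 RNA-seq libraries of mouse embryonic fibroblasts. The genes were taken by name, from a list drawn up when earlier results of these data were known. They are Npat, Casp8ap2, Slbp, Lsm10, Lsm11, Zfp473, Cpsf2, Cpsf3, Sympk and Cstf2, 10 of the 47517 genes in the count table. All 10 were among the 17609 genes kept by the filter on low counts.

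The cells were fibroblasts from E13.5 embryos of the strain C57BL/6, immortalised with the SV40 large T antigen. Both alleles of Ssb1 and of Ssb2, the genes for single-stranded DNA-binding proteins listed in the table as Nabp2 and Nabp1, carried loxP sites in every group by the treatment protocol, Cre-negative cells included, although the genotype label of Cre-positive cells spells the Ssb1 alleles "Fl/F". Cre-positive cells also carried RosaCreERT2, a recombinase expressed from the Rosa locus that acts once 4-hydroxytamoxifen (4-OHT) is added. Each of the 2 genotypes was left untreated, given ethanol (the solvent) or given 4-OHT for 5 days, with 2 libraries in each of the 6 groups. Nothing in the labels tells whether a group's 2 libraries stem from different cultures. The p-values therefore measure only the spread between libraries, which may be technical. Each genotype may be 1 line, so that Cre status and line cannot be told apart.

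Totals ran from 20201855 to 36367012 counts per library. Nabp1 fell from 15.2 ± 1.02 CPM (counts scaled to library size; SD, n = 2) in Cre-positive cells with ethanol to 3.68 ± 0.40 with 4-OHT, and Nabp2 from 21.2 ± 1.99 to 4.97 ± 0.18, while adjusted p-values were 0.883 and 0.177 in Cre-negative cells (edgeR quasi-likelihood test, Benjamini-Hochberg adjustment over all tested genes, as for every adjusted p below). Without treatment, both genes were already lower in Cre-positive than in Cre-negative cells. Mean levels were 15.7 against 26.3 CPM for Nabp1 and 21.6 against 27.0 CPM for Nabp2. Of 10 fibroblast markers, 7 were at 1 CPM or more in every group, with a summed level of 6437 to 8520 CPM per library. The defining markers Lum and Dcn were near 0, and Thy1 had no count in Cre-negative cells. Summed markers of other cell types were at 17.1 to 50.7 CPM per library, higher in Cre-positive cells, and their part in the results was not tested. SV40 large T binds the RB family, so S phase control in all 12 libraries is that of T-antigen cells.

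Replication-dependent histone mRNAs lack the poly(A) tail of other mRNAs. They end instead just after a conserved stem-loop, which the stem-loop binding protein SLBP holds. The U7 snRNP, built on a small nuclear RNA and on LSM10 and LSM11, pairs with a downstream element and brings in a cleavage complex in which CPSF3 cuts and CPSF2, symplekin and CstF-64 serve as partners. NPAT, a target of cyclin E and CDK2, and CASP8AP2 (FLASH) concentrate this machinery at the histone locus body.

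The sequences that the machinery reads are shown here because the tested genes act on them. The U7 RNA gene Rnu7 lies at chr6:124741225-124741286 on the minus strand (62 bases, GENCODE M21 on GRCm38). In the DNA letters of the transcript, bases 12 to 17 (capitals, first run) pair with the histone downstream element and bases 21 to 31 (capitals, second run) are the Sm site that takes LSM10 and LSM11.
Rnu7: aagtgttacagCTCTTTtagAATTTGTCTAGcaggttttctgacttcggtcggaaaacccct

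A search of the last 400 bases of annotated transcripts found the stem-loop in 30 of 67 histone genes with a coding transcript, in 6 forms. The search took only a stem of 6 perfect pairs starting with GG and a loop of 4 bases starting with TT. A gene whose annotated transcript ends before the loop, or whose stem has a mismatch, was not found. The 30 are therefore not a count of the histone genes that have a stem-loop. The commonest form was in 17 genes. The examples below have 5 bases on each side and the stem-loop in capitals. They show that form (Hist1h2bj), the form of Hist1h4i, a histone gene described further on, and 2 further forms.
Hist1h2bj: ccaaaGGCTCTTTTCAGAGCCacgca
Hist1h4i: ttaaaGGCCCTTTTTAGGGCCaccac
Hist1h2bk: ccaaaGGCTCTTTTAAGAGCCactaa
Hist2h2ac: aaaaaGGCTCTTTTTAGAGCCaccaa
Hist1h2bj, Hist1h4i and Hist1h2bk lie on chromosome 13 and Hist2h2ac on chromosome 3. Of 18 stem-loop genes with enough annotated sequence beyond the loop, 6 held AAAGAG, the core of the downstream element, in the next 30 bases.

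Among the 10 genes, 2 rose and 4 fell when Cre-positive cells with 4-OHT were compared with those given ethanol. Nabp1 and Nabp2 fell in that comparison. Every group carried loxP sites, so the recombinase's own activity cannot be told apart from loss of the Ssb genes. Of the 10, Cstf2 fell most, to 72.1% of its ethanol level, and the largest rise was that of Casp8ap2, to 115%. In bulk samples a changed share of cells of a kind, such as S phase cells, and a changed amount of RNA per cell cannot be told apart. Called genes made up 38.3% of all tested genes in this comparison (21.1% rose and 17.2% fell), against 6 of the 10 here. Fewer were called with DESeq2 (4 of the 10 and 4697 of all genes, against 6736 with edgeR). With no filter on low counts, edgeR called 4 of the 10 and 6282 of all genes. The 10 log2 changes ran from -0.47 to 0.20 with a median of -0.04, beside a median of 0.03 over all genes and a median absolute change of 0.21. In Cre-negative cells the same treatment gave a call for 0 of the 10 with edgeR and 0 with DESeq2, beside 5.99% of all genes, and 1 of the 10 (Cstf2) had an unadjusted p under 0.05. The difference between the 2 genotypes' responses was called for 3 of the 10 (Casp8ap2, Cpsf3 and Cstf2), beside 28.3% of all genes. Against untreated Cre-positive cells, 7 of the 10 were called, beside 39.2% of all genes. That comparison shares the 4-OHT libraries with the first.

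**Figure D1:**
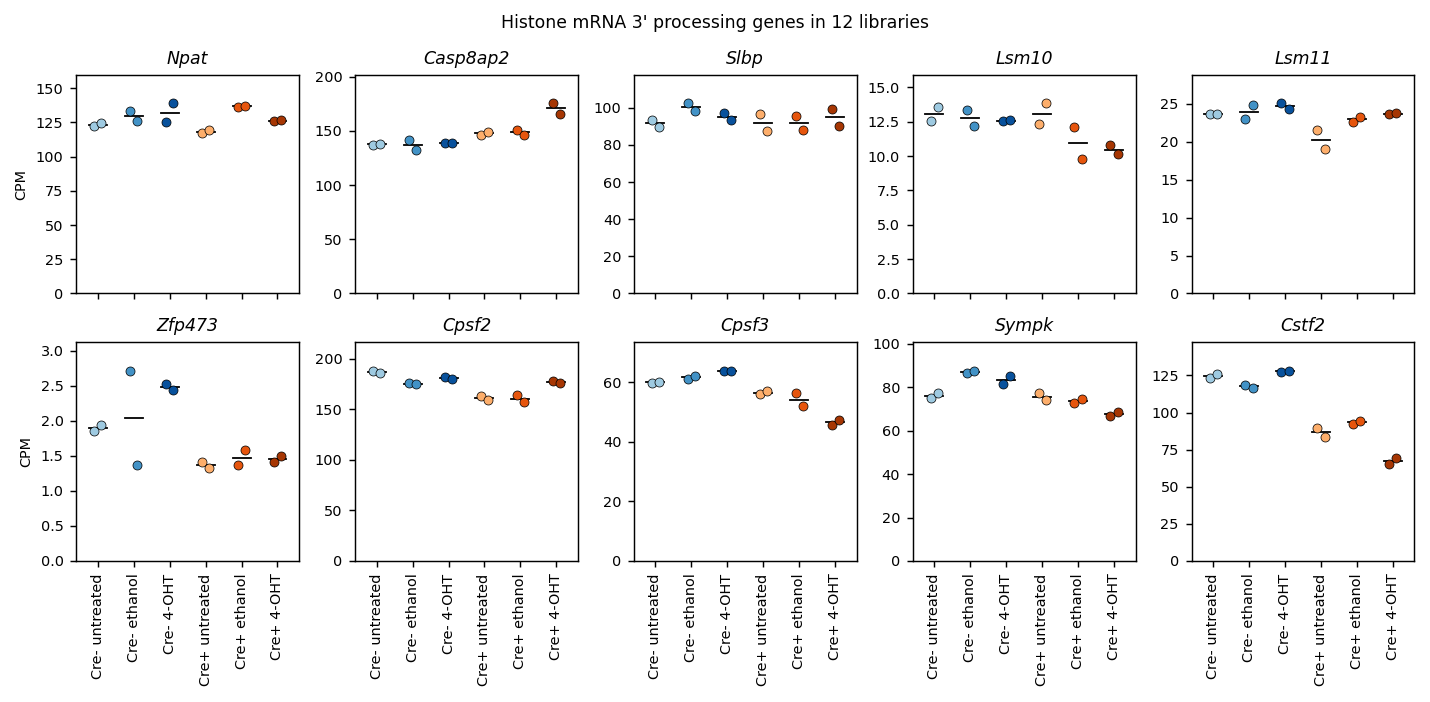
CPM (vertical axis, from 0) of each of the 10 genes in the 6 groups (horizontal axis), with 1 point per library and a line at the mean of 2. Cstf2 and Cpsf3 are lowest, and Casp8ap2 highest, in Cre-positive cells with 4-OHT (Cre+ 4-OHT).

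Against ethanol, the log2 changes of the 2 histone locus body genes in Cre-positive cells with 4-OHT had opposite signs. Against untreated cells both were above 0, and the fall of Npat was not called in most other settings. Casp8ap2, whose protein FLASH binds LSM11 and links U7 to the cleavage complex, stood at 151 and 147 CPM in Cre-positive cells with ethanol and at 176 and 166 CPM with 4-OHT. The untreated Cre-positive libraries had 146 and 149 CPM, and the 6 Cre-negative libraries ran from 132 to 141 CPM. Both 4-OHT libraries of the Cre-positive cells were thus above the other 10. The change was 0.20 on the log2 scale (SE 0.0412, adjusted p = 0.00067), and 0.21 against untreated cells (adjusted p = 0.000389). In Cre-negative cells it was 0.02 (adjusted p = 0.813). The difference between the genotypes was 0.17 (adjusted p = 0.0323), a call that DESeq2 (adjusted p = 0.0652), the fit with no filter on low counts (0.18, adjusted p = 0.0597), the fit of only the compared libraries (0.16, adjusted p = 0.0583) and 5 of the 8 fits that left out 1 library did not give, namely those without Cre-positive ethanol library 4 (0.15) or 4-OHT library 11 (0.13) and without Cre-negative library 5 (0.16), 6 (0.18) or 9 (0.12).

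Npat, the coactivator of histone gene transcription, had 136 and 137 CPM in Cre-positive cells with ethanol, 126 and 126 CPM with 4-OHT and 117 and 120 CPM untreated. The 4-OHT level lay between the other two. Its log2 change was -0.11 against ethanol (SE 0.0449, adjusted p = 0.0486) but 0.09 against untreated cells (adjusted p = 0.117). Npat was higher by 0.21 with ethanol than untreated (adjusted p = 0.00387), and these groups also differ in the labelled 5 days. The fall was not called by DESeq2 (adjusted p = 0.0639), with no filter on low counts (adjusted p = 0.0596), without any 1 of the 4 libraries, or with ethanol and untreated cells as 1 reference (-0.02, adjusted p = 0.872). Cre-negative cells had 122 to 139 CPM, and the difference between the genotypes was -0.15 (adjusted p = 0.0904). That difference rested on the Cre-negative 4-OHT libraries, at 125 and 139 CPM: it was -0.23 and called without library 5 (adjusted p = 0.0105) and -0.07 without library 6 (adjusted p = 0.495).

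Npat and Atm, the gene for a DNA damage kinase, point away from each other on chromosome 9, with 306 bases between their annotated starts (positions 53536741 to 53537046). The 250 bases before Npat, chr9:53536797-53537046 on the plus strand, lie wholly in that gap. They are shown because the genes on both sides of them are described here. Capitals mark CCAAT on either strand and one E2F-like match, TTGCCGC (RefSeq promoter window, GRCm38.p6).
Npat window: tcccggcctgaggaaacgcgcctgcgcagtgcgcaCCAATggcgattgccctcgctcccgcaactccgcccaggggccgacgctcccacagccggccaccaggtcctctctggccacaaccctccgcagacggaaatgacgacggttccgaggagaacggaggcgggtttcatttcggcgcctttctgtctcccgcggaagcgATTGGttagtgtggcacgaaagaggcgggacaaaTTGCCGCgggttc
Windows before each start were searched on both strands for CCAAT and for E2F-like letters. The latter were TTGGCGC, the form TTCGCGC, the form TTCCCGC and the form TTGCCGC. E2F-like letters were found for 3 of the 10 genes (Npat, Casp8ap2 and Cpsf2), beside 7.89% of 32851 windows of all genes, and CCAAT for 5 of the 10, beside 33.8%. The 10 were counted as genes with a match in any window, and Zfp473 had several windows, so the units differ. The Casp8ap2 window held TTGGCGC on both strands, overlapping, and TTCCCGC. A match is a description of letters only.

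Atm had 135 and 140 CPM in Cre-positive cells with ethanol, 140 and 131 CPM untreated, and 89.1 and 85.7 CPM with 4-OHT. All 6 Cre-negative libraries were higher, at 157 to 189 CPM. The log2 change of Atm with 4-OHT was -0.66 (SE 0.0471, adjusted p = 1.19e-09), and its difference between the genotypes was -0.70 (adjusted p = 1.24e-07). The counts of Atm and Npat share no exon. The difference between the changes of the 2 genes was not tested.

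**Figure D2:**
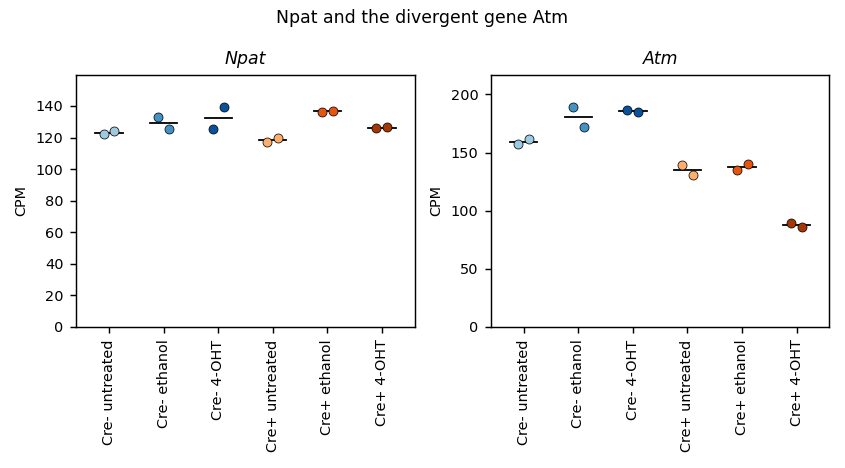
CPM (vertical axis, from 0) of Npat and Atm in the 6 groups, with 1 point per library and a line at the mean of 2. Atm is at 85.7 to 89.1 CPM in Cre-positive cells with 4-OHT, below the other 10 libraries. Npat lies within 117 to 139 CPM across all 12.

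Slbp, the stem-loop binder, gave no call. Its libraries read 95.8 and 87.8 CPM with ethanol, 99.3 and 90.3 CPM with 4-OHT and 96.7 and 87.2 CPM untreated in Cre-positive cells, so the groups overlapped. The log2 change with 4-OHT was 0.05, with a 95% confidence interval from -0.07 to 0.16 (adjusted p = 0.52). Cre-negative cells had 89.8 to 103 CPM. Across the 12 libraries Slbp kept to 87.2 to 103 CPM. An antisense gene, Gm10459, covers 474 bases (7.8%) of the Slbp exons on the other strand.

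The U7 snRNP genes also gave no call against ethanol. Lsm10, a ring protein that takes the place of a spliceosomal Sm protein, had 12.1 and 9.82 CPM with ethanol and 10.8 and 10.1 CPM with 4-OHT in Cre-positive cells. These groups overlapped (log2 change -0.06, SE 0.101, adjusted p = 0.673). Against untreated cells, with 12.3 and 13.9 CPM, Lsm10 fell by 0.32 on the log2 scale (adjusted p = 0.0174), a call that was lost with DESeq2 (adjusted p = 0.0546), without untreated library 8 (adjusted p = 0.166) and without 4-OHT library 12 (adjusted p = 0.099).

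Lsm11, the ring protein that binds FLASH, had 22.6 and 23.3 CPM with ethanol, 23.6 and 23.7 CPM with 4-OHT, and 21.5 and 19.0 CPM untreated. Its change was 0.05 against ethanol (adjusted p = 0.632) and 0.22 against untreated cells (adjusted p = 0.0175). The second of these was lost with DESeq2 (adjusted p = 0.0685), without untreated library 8 (0.14, adjusted p = 0.222), and without either 4-OHT library (adjusted p = 0.062 without library 11 and 0.0643 without library 12). Untreated Cre-positive cells were the lowest of the 6 groups.

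Zfp473, a zinc finger protein that associates with U7 snRNP, was close to the floor of the table, at 1.36 and 1.58 CPM with ethanol and 1.42 and 1.498 CPM with 4-OHT, or 37 to 50 counts. With a log2 change of -0.02 and an interval from -0.56 to 0.52, little can be read at this depth. The libraries of Cre-negative cells with ethanol differed from each other, at 2.72 and 1.37 CPM. Vrk3 covers 205 bases (2.04%) of the Zfp473 exons on the other strand, with group means from 6.23 to 8.06 CPM. Vrk3 was not called with 4-OHT against ethanol in Cre-positive cells (0.24, adjusted p = 0.0715). Its difference between the genotypes was 0.53 (adjusted p = 0.0126). Whether Vrk3 reads were counted for Zfp473 was not tested.

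The U7 RNA itself had 0 counts in each of the 12 libraries. Rnu7 is 62 bases long in the annotation, shorter than the reads of 75 bases. It also overlaps the spans of 2 genes on the same strand, Grcc10 and Gm45234. The U7 RNA was not detectable in these libraries, and the reason for the 0 counts was not tested. The Sm proteins that U7 shares with spliceosomal snRNPs were counted. Of 5 tested, 2 rose and 0 fell with 4-OHT against ethanol in Cre-positive cells, beside 21.1% and 17.2% of all genes. Snrpb, from 311 to 367 CPM, changed by 0.24 (adjusted p = 4.64e-05), and Snrpe, from 49.6 to 59.1 CPM, by 0.25 (adjusted p = 0.000179). In Cre-negative cells 1 of the 5 rose, beside 5.99% of all genes called. For the difference between the genotypes 2 rose and 1 fell (median 0.004), beside 28.3% of all genes called.

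**Figure D3:**
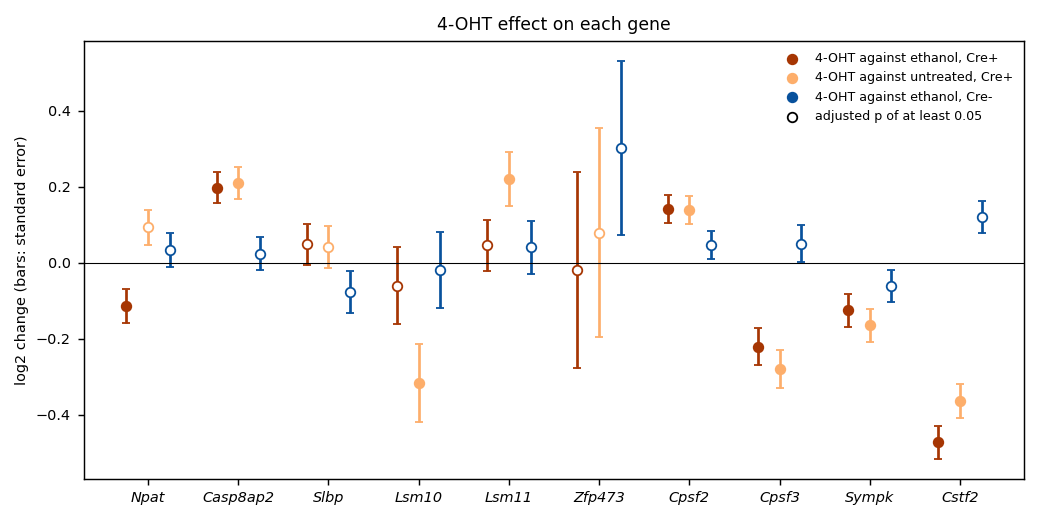
Log2 change (vertical axis; bars are standard errors) of each gene with 4-OHT against ethanol and against untreated cells in the Cre-positive genotype and against ethanol in the Cre-negative genotype. Filled points have an adjusted p under 0.05, and open points do not. All 10 points of Cre-negative cells are open.

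The 4 genes of the cleavage complex gave calls in both directions. Cpsf2, the partner of CPSF3 without cutting activity, rose from 164 and 158 CPM with ethanol to 179 and 176 CPM with 4-OHT, while untreated cells had 163 and 159 CPM. The Cre-positive 4-OHT libraries stood above the other 4 of that genotype and within the range of Cre-negative cells (175 to 188 CPM). The log2 change was 0.14 against ethanol (adjusted p = 0.00406) and 0.14 against untreated cells (adjusted p = 0.00508). It was not called without ethanol library 4 (0.11, adjusted p = 0.0521), nor against untreated cells without untreated library 8 (0.12, adjusted p = 0.0532). The difference between the genotypes was 0.10 (adjusted p = 0.185). Ndufb1-ps covers 147 bases (2.56%) of the Cpsf2 exons on the other strand.

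Cpsf3, the endonuclease, had 56.4 and 52.1 CPM with ethanol, 45.7 and 47.4 CPM with 4-OHT and 56.1 and 57.0 CPM untreated. The 4-OHT libraries of Cre-positive cells were the lowest 2 of the 12. The log2 change was -0.22 against ethanol (SE 0.0489, adjusted p = 0.00117) and -0.28 against untreated cells (adjusted p = 0.000121). Cre-negative cells read 59.8 to 64.0 CPM and changed by 0.05 (adjusted p = 0.619), so that the difference between the genotypes was -0.27 (adjusted p = 0.00511). Itgb1bp1 covers 196 bases (3.71%) of the Cpsf3 exons on the other strand and gave no call itself (log2 change -0.12, adjusted p = 0.166).

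Sympk, the scaffold symplekin, had 72.7 and 74.7 CPM with ethanol, 66.7 and 68.5 CPM with 4-OHT and 77.3 and 74.1 CPM untreated. Its change was -0.13 against ethanol (adjusted p = 0.0278) and -0.16 against untreated cells (adjusted p = 0.00528). The first was not called by DESeq2 (adjusted p = 0.0595), without a filter (adjusted p = 0.0701), or without ethanol library 4, 4-OHT library 11 or 4-OHT library 12 (adjusted p = 0.0536 to 0.173). The second was lost without untreated library 7 (adjusted p = 0.0802) or 4-OHT library 11 (adjusted p = 0.0575). The difference between the genotypes was -0.06 (adjusted p = 0.475). In Cre-negative cells Sympk was higher with ethanol, at 86.6 and 87.7 CPM, than untreated, at 74.9 and 77.4 CPM (log2 change 0.19, adjusted p = 0.00213).

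Cstf2, the CstF-64 subunit shared by histone and polyadenylated mRNA processing, had 92.4 and 94.6 CPM with ethanol, 65.5 and 69.4 CPM with 4-OHT and 89.6 and 83.6 CPM untreated. The 6 Cre-negative libraries were all higher, at 117 to 128 CPM, and the 4-OHT libraries of Cre-positive cells were the lowest of the 12. The log2 change was -0.47 against ethanol (SE 0.0437, adjusted p = 4.52e-08) and -0.36 against untreated cells (adjusted p = 1.41e-06). In Cre-negative cells it was 0.12 (adjusted p = 0.0992), and the difference was -0.59 (adjusted p = 4.52e-07). Nox1 covers 399 bases (4.35%) of the Cstf2 exons on the other strand and had 1 to 6 counts per library.

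Cstf2t, a retrogene with 1 exon on chromosome 19 whose protein resembles CstF-64, moved the other way. It had 25.9 and 22.9 CPM in Cre-positive cells with ethanol, 42.5 and 41.5 CPM with 4-OHT and 23.1 and 23.6 CPM untreated, against 109 to 128 CPM in Cre-negative cells. The log2 change was 0.79 (SE 0.0579, adjusted p = 1.75e-09), 0.85 against untreated cells (adjusted p = 6.4e-10), and 0.79 as a difference between the genotypes (adjusted p = 1.29e-07). Among untreated cells Cstf2t was lower in the Cre-positive genotype (log2 difference -2.25, adjusted p = 1.38e-18).

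No stretch of 75 bases, the read length, was identical in the annotated transcripts of Cstf2 and Cstf2t. Whether trimmed or mismatched reads were split between the 2 genes was not tested. Cstf2t lies within Prkg1, on the opposite strand, without a shared exon. Prkg1 had 1 to 5 counts in each Cre-positive library and 8.78 to 15.5 CPM in Cre-negative ones, so it was low where Cstf2t was low. It stayed at 1 and 5 counts in the Cre-positive 4-OHT libraries, where Cstf2t rose.

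When Cstf2 and Cstf2t were summed, an alternative chosen after the values were seen, the pair had 118 and 117 CPM with ethanol, 108 and 111 CPM with 4-OHT and 113 and 107 CPM untreated. The log2 change of the sum was -0.11 against ethanol (adjusted p = 0.0338) and -0.01 against untreated cells (adjusted p = 0.889). The share of the sum from Cstf2t went from 20.7% ± 1.71 (SD, n = 2) with ethanol to 38.4% ± 1.36 with 4-OHT. It was 21.3% ± 1.07 in untreated Cre-positive cells, and 47.1% to 51.6% in the 3 Cre-negative groups.

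**Figure D4:**
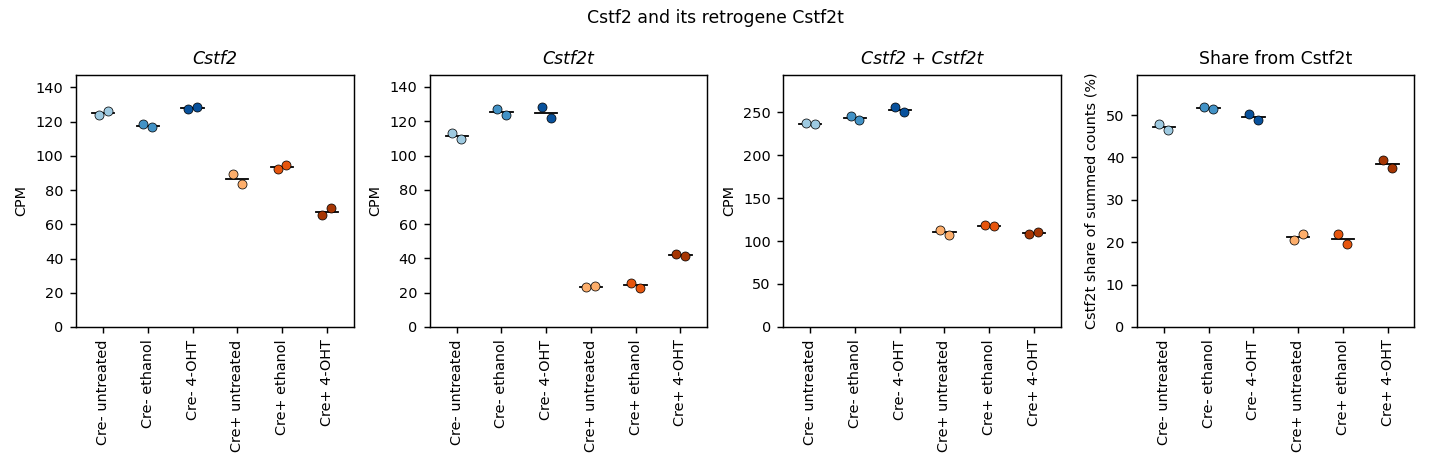
CPM (vertical axes, from 0) of Cstf2, of Cstf2t and of their sum in the 6 groups, and the percent of the sum that came from Cstf2t, with 1 point per library and a line at the mean of 2. In Cre-positive cells with 4-OHT, Cstf2 is lowest, and the Cstf2t share is 38.4% against 20.7% with ethanol.

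CPSF3 has a paralogue in the Integrator complex, which ends snRNA transcripts. Its gene, Cpsf3l in the table and Ints11 in the annotation, had 39.4 and 36.5 CPM with ethanol and 27.3 and 26.3 CPM with 4-OHT in Cre-positive cells (log2 change -0.50, adjusted p = 2.95e-06; difference between the genotypes -0.34, adjusted p = 0.00596). Ints9, the Integrator paralogue of CPSF2, was not called (8.03 and 10.3 against 7.30 and 8.99 CPM, log2 change -0.18, adjusted p = 0.332). Its difference between the genotypes was -0.68 (adjusted p = 0.0148), which rested on Cre-negative libraries that differed from each other, at 13.6 and 9.54 CPM with 4-OHT: without the first it was -0.44 (adjusted p = 0.104). It was also lost without Cre-positive ethanol library 4 (-0.49, adjusted p = 0.117), Cre-positive 4-OHT library 11 (-0.53, adjusted p = 0.0845) or Cre-negative ethanol library 10 (-0.66, adjusted p = 0.0579).

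The remaining comparisons gave calls for 1 to 3 of the 10 genes, each a smaller share than that of all genes, and nothing is read from them about the 10. The ethanol groups also differ from the untreated ones in their labelled 5 days, so solvent and culture time cannot be told apart. Ethanol against untreated cells called 1 of the 10 in Cre-positive cells (Npat), beside 14.9% of all genes, and 1 of the 10 in Cre-negative cells (Sympk), beside 24.5%. Untreated Cre-positive against untreated Cre-negative cells called 3 of the 10, beside 49.0% of all genes, all lower in Cre-positive cells. These were Cstf2 (log2 difference -0.53, adjusted p = 1.26e-09), Cpsf2 (-0.22, adjusted p = 4.7e-05) and Lsm11 (-0.22, adjusted p = 0.0156; lost with DESeq2, adjusted p = 0.0598, and without Cre-negative untreated library 1 or 2 or Cre-positive untreated library 8, adjusted p = 0.0556, 0.0611 and 0.194).

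Per kilobase of annotated exon, over all isoforms, the genes differed widely. Median levels over 12 libraries, in RPKM (CPM per kilobase), were 30.8 for Cpsf2, 21.1 for Casp8ap2 and 20.1 for Npat. Slbp followed at 15.5, Lsm10 at 13.3, Cstf2 at 11.6 and Cpsf3 at 11.2. Sympk had 7.25, Lsm11 3.61 and Zfp473 0.15. Over libraries the range of Cpsf2 lay above that of Casp8ap2, and the range of Npat above that of Slbp. Casp8ap2 and Npat overlapped, and so did each neighbouring pair from Slbp down to Sympk. The U7 proteins LSM10 and LSM11 share 1 particle, and their mRNA levels per length were 13.3 and 3.61 RPKM.

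Across the 12 libraries, genes most like Cstf2 by Pearson's r, among 10087 with an average log2 CPM of 3 or more, were Cenpi (0.991), Nap1l1 (0.990) and Ccnd2 (0.989). Most like Cpsf3 were a gene whose symbol a spreadsheet had turned into a date (0.985), Ruvbl2 (0.984) and Rpap2 (0.981), and most like Casp8ap2 were Sf3b1 (0.969), Zfr (0.965) and Ckap4 (0.965). The points share groups of 2 libraries and a genotype, and these values describe likeness only.

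Of 45 tested among 46 other genes of the pathway, 6 rose (13.3%) and 18 fell (40.0%) with 4-OHT against ethanol in Cre-positive cells, beside 21.1% and 17.2% of all genes. Their median log2 change was -0.05. For the difference between the genotypes, 7 of the 45 rose and 9 fell, beside 28.3% of all genes called in either direction, with a median of -0.10. Of the 6 remaining cleavage and polyadenylation genes, 4 fell and 0 rose, such as Cstf3, which pairs with CstF-64 (43.5 to 37.6 CPM, log2 change -0.21, adjusted p = 0.00364), and Cpsf4 (42.8 to 37.5 CPM, -0.19, adjusted p = 0.0101). The Cpsf4 call was lost without ethanol library 3 (-0.12, adjusted p = 0.141) and without 4-OHT library 12 (adjusted p = 0.0707). For the difference between the genotypes, 0 of these 6 were called with edgeR and 0 with DESeq2, and 1 (Cstf3, -0.18) had an unadjusted p under 0.05 (adjusted p = 0.0912). Of 8 genes for histone gene transcription, 1 rose and 5 fell. Among them Ccne1 and Ccne2, the cyclin E genes, fell by 0.28 (adjusted p = 0.000913) and fell by 0.24 (adjusted p = 0.00136) on the log2 scale. The change of Ccne2 was -0.15 without ethanol library 3 (adjusted p = 0.0471).

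Of 8 genes for the cap and for elongation, 1 rose and 2 fell with 4-OHT against ethanol in Cre-positive cells, beside 21.1% and 17.2% of all genes. Ncbp2, the small cap-binding subunit, went from 74.5 to 90.2 CPM (0.28, adjusted p = 0.000172), and Cdk9, the kinase of P-TEFb, from 57.4 to 44.3 CPM (-0.37, adjusted p = 2.66e-05). Of 4 genes for SLBP turnover and release, 1 rose and 2 fell, beside the same shares of all genes. They include Ccnf, the cyclin F that marks SLBP for destruction (66.4 to 54.3 CPM, -0.29, adjusted p = 4.89e-05), and Cdk1 (408 to 459 CPM, 0.17, adjusted p = 0.00155).

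Of 3 genes for histone mRNA export and translation, 0 rose and 2 fell, beside 21.1% and 17.2% of all genes. Those that fell were Ddx19b (27.4 to 20.8 CPM, -0.40, adjusted p = 0.000112) and Mif4gd, the SLBP partner SLIP1 (14.3 to 11.9 CPM, -0.27, adjusted p = 0.017). Mif4gd was also lower with 4-OHT in Cre-negative cells, at 11.7 and 12.98 CPM against 14.5 and 15.1 CPM with ethanol. Ddx19b was not lower there. Of the 3 genes, 0 were called in Cre-negative cells, beside 5.99% of all genes. For the difference between the genotypes, 1 of the 3 fell and 0 rose, beside 28.3% of all genes called. The Mif4gd call was lost with DESeq2 (adjusted p = 0.0724) and without ethanol library 4 or 4-OHT library 11 or 12 (adjusted p = 0.125, 0.0916 and 0.0523). Of 8 histone mRNA decay genes, 0 rose and 2 fell with 4-OHT against ethanol in Cre-positive cells, beside 21.1% and 17.2% of all genes. Those that fell were Xrn1, the 5′ to 3′ exonuclease (98.0 to 75.4 CPM, -0.38, adjusted p = 4.29e-06), and Upf1, the helicase that starts decay (107 to 94.9 CPM, -0.17, adjusted p = 0.00277). The Upf1 call was lost with ethanol and untreated cells as 1 reference (-0.11, adjusted p = 0.131).

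**Figure D5:**
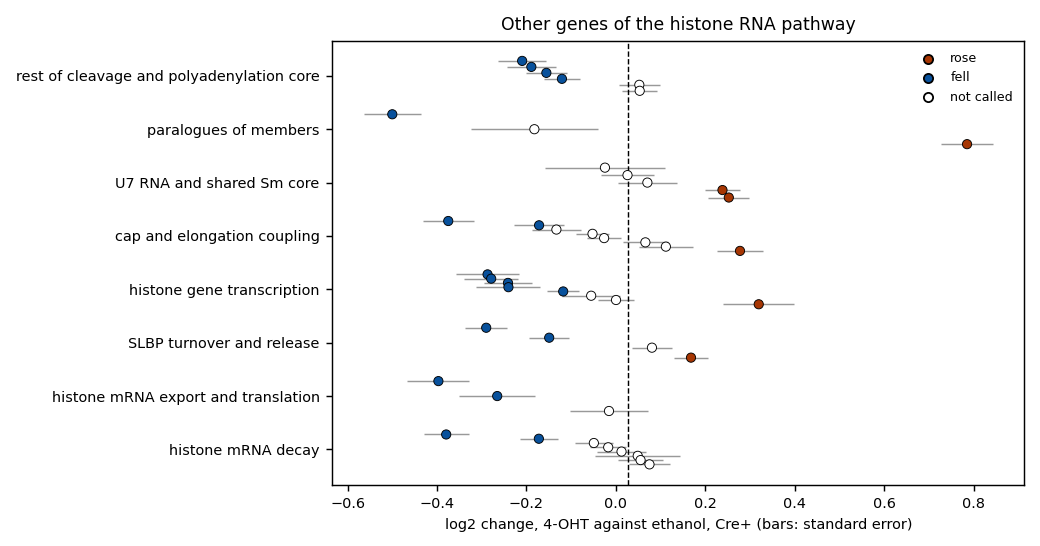
Log2 change with 4-OHT against ethanol in Cre-positive cells (horizontal axis; bars are standard errors) of other pathway genes, 1 point per gene in rows by role. Brown points rose, blue points fell and white points were not called; the dashed line is the median of all genes (0.03). The points of Cstf2t (0.79) and Cpsf3l (-0.50) lie at the far ends.

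Many histone genes, whose mRNAs this machinery makes, were higher in Cre-positive cells with 4-OHT. Of 63 tested of 69 histone genes in the table, 41 rose and 0 fell with 4-OHT against ethanol in Cre-positive cells (median log2 change 0.21), beside 21.1% and 17.2% of all genes. Against untreated cells 33 rose and 2 fell (median 0.15), beside 39.2% of all genes called. In Cre-negative cells 0 rose and 27 fell with 4-OHT against ethanol (median -0.16), beside 5.99% of all genes called. At an unadjusted p under 0.05 against ethanol, 0 fell in Cre-positive and 0 rose in Cre-negative cells. In Cre-negative cells 51 rose and 0 fell with ethanol against untreated cells (24.5% of all genes called), a comparison that shares the ethanol libraries. Of 30 S phase genes, 2 rose and 12 fell with 4-OHT against ethanol in Cre-positive cells (median log2 change -0.09), and the part of the cell cycle in these changes was not tested. Of the 27 tested genes in which the search found a stem-loop, 18 rose and 0 fell with 4-OHT against ethanol in Cre-positive cells. The summed level of all 69 was 7930 and 7800 CPM with ethanol, 8946 and 9248 CPM with 4-OHT and 8092 and 8117 CPM untreated in Cre-positive cells. The means of the Cre-negative groups, 9237 CPM untreated, 11813 CPM with ethanol and 10663 CPM with 4-OHT, were all above the 9097 CPM of Cre-positive cells with 4-OHT.

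Hist1h4i, whose stem-loop is printed above, had 36.3 and 36.2 CPM with ethanol and 74.9 and 78.0 CPM with 4-OHT in Cre-positive cells (log2 change 1.08, adjusted p = 2.17e-12). In Cre-negative cells it had 26.5 to 33.8 CPM. Hist1h2bj, with the commonest form, changed by 0.21 (adjusted p = 0.000406), Hist1h2bk by 0.30 (adjusted p = 3.58e-06) and Hist2h2ac by 0.25 (adjusted p = 0.00467). The Hist2h2ac call was lost without ethanol library 4 (0.21, adjusted p = 0.0585), without 4-OHT library 11 (0.21, adjusted p = 0.0583) and with a joint reference (0.17, adjusted p = 0.0842). Histone genes of one type are near copies, so reads may be split between them, and these single values are uncertain.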

How the data were processed

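The 12 libraries were made with a stranded total RNA kit after ribosomal RNA depletion and read as pairs of 75 bases, per the labels' protocols. The table deposited by the authors holds expected counts per gene, whole numbers as deposited. Per the submitters' processing notes, cutadapt 1.11, STAR 2.5.2a, RSEM 1.2.30 and edgeR were used with GRCm38; the annotation and strand setting were not given in the sources used here. Groups came from the sample labels.

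Genes passing edgeR's filter on low counts (17609 of 47517) were scaled by TMM (factors 0.972 to 1.02) and tested with edgeR 4.0.16, quasi-likelihood, 1 mean per group over 12 libraries, Benjamini-Hochberg adjustment over all tested genes, threshold 0.05. The common biological coefficient of variation was 3.44%. Libraries of a group differed beyond sampling noise (chi-square per degree of freedom 2.37 to 4.60), so none was a copy. DESeq2 1.42.0, RLE factors, no filter, only the compared libraries, a joint ethanol and untreated reference, and leaving out each library were tried. Scripts were tested on simulated data.

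Sequences and positions are from GENCODE M21 (GRCm38) and RefSeq. Named genes were all 10 members, their paralogues, Rnu7, Atm, Nabp1, Nabp2, the 2 genes of lowest p per pathway list with 4-OHT against ethanol in Cre-positive cells, and the 3 genes most like each of the 3 members with the largest changes. Histone examples and genes overlapping a member were chosen apart from that rule. The members and lists were chosen with earlier results of these data known. A planned search of protein sequences was not done.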

Additional observations from a re-analysis of the deposited data

Results flagged for a closer look

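Among the 10 genes, their paralogues and Atm, the responses to 4-OHT of 7 differed between Cre-positive and Cre-negative cells, by the test of the difference itself (edgeR quasi-likelihood test, log2 scale, Cre-positive minus Cre-negative). The histone processing genes among them numbered 3 of the 10, beside 28.3% of all genes called. They were Casp8ap2 (0.17), Cpsf3 (-0.27) and Cstf2 (-0.59). The others were Atm (-0.70) and all 3 paralogues, Cstf2t (0.79), Cpsf3l (-0.34) and Ints9 (-0.68). The calls of Casp8ap2 and Ints9 were lost in several of the other settings, as given above. Groups of 2 libraries are too small to look for a single library that stands apart.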

How the results depend on the processing

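No paired analysis was possible because the library numbers in the labels are not shared between groups. Among alternative values for called changes of the 10 genes, 154 kept the call, 36 lost it and 0 changed direction. Changes not called were followed only for 4-OHT in Cre-positive cells, against ethanol or untreated cells, and for the difference between genotypes. In Cre-negative cells they were followed only for Casp8ap2, Cpsf3 and Cstf2 with 4-OHT against ethanol. Among these values, 149 stayed so, 1 passed the threshold (the Npat difference between genotypes, without Cre-negative 4-OHT library 5) and 19 changed sign. Changes not called in the other comparisons are not in this count. The calls of Cstf2 and Cpsf3 with 4-OHT held in each setting run, except that the sum of Cstf2 and Cstf2t was not called against untreated cells (-0.01). Scaling by RLE factors lost none of the calls of the 10 genes. Where an arm was left with 1 library, that library was assumed to vary like the other groups. The cause of these changes was not tested, although fewer libraries lower the power.

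Leaving out 1 library gave 3 to 5 called genes of the 10 with 4-OHT against ethanol in Cre-positive cells (3 without ethanol library 4), 4 to 6 against untreated cells (4 without untreated library 8) and 1 to 2 with ethanol against untreated cells in that genotype (2 without ethanol library 3). In these fits of 4-OHT against ethanol in Cre-positive cells, fewer genes were called over all genes too. Ethanol against untreated Cre-negative cells called 2 of the 10 when only the compared libraries were fitted. Over all genes, 4-OHT against ethanol in Cre-negative cells called 1648 with only the compared libraries, against 1054 with all, and 274 to 636 when 1 library was left out. Ethanol against untreated cells called 1440 to 2485 in Cre-positive and 2775 to 3321 in Cre-negative cells when 1 was left out.

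Changes not called that turned sign when 1 library was left out were, with 4-OHT against ethanol in Cre-positive cells, Slbp (-0.023 to 0.11), Lsm10 (-0.21 to 0.092), Zfp473 (-0.12 to 0.093; 0.026 with a joint reference) and Ints9 (-0.35 to 0.013, the highest without ethanol library 4). In Cre-negative cells this held for Casp8ap2 (-0.030 to 0.063), and against untreated Cre-positive cells for Slbp (-0.030 to 0.12). For the difference between genotypes it held for Lsm10 (-0.19 to 0.11), Lsm11 (-0.068 to 0.050; -0.0015 with RLE factors, -0.0024 in DESeq2, and -0.011 where other groups were left out) and Zfp473 (-0.88 to 0.10).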
